A study of Mus musculus with 4 samples.

Results

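The major histocompatibility complex (MHC) presents antigens, and 10 genes of this presentation, not all of which lie in the complex, were examined in dissociated mouse testis: 7 class II genes (H2-Aa, H2-Ab1, H2-Eb1, Cd74, H2-DMa, H2-DMb1 and Ciita) and 3 class I genes (H2-K1, H2-D1 and B2m). They were taken by gene symbol from a list, and make up 10 of the 55450 genes in the files. Droplet single-cell RNA sequencing with 3′ chemistry gave 4 libraries, 2 from mice fed a high-fat diet (HFD 1 and HFD 2) and 2 from mice fed a normal diet (ND 1 and ND 2). The labels give neither strain, age, duration of the diet nor the number of animals, and do not say that each library came from a separate animal, so p-values here measure the spread between libraries only.

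MHC molecules carry peptides to the cell surface, where T cells read them. Class I molecules are made by most nucleated cells and consist of a heavy chain and the light chain beta-2-microglobulin. Class II molecules are made mainly by professional antigen presenting cells such as macrophages, dendritic cells and B cells. Their alpha and beta chains assemble with the invariant chain, and the DM heterodimer later helps to exchange the remnant of that chain for a peptide. In the testis, macrophages lie in the interstitium beside the testosterone-producing Leydig cells, while most germ cells lie behind the blood-testis barrier.

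Class II promoters are known for a conserved X box and Y box, and class I promoters for NF-kB and interferon response elements. Stretches before the start sites of 3 members are shown because H2-Aa and H2-Eb1 had similar log2 ratios in macrophage-like cells and H2-K1 a smaller one. They are RefSeq sequences on GRCm38.p6, printed 5′ to 3′ on the gene's strand, with motif matches in capitals and the start site counted as 0. For H2-Aa (minus strand, chr17:34287834-34287933) the capitals mark the Y box CTGATTGG. For H2-Eb1 (plus strand, chr17:34305757-34305856) they mark, in order, an X box-like motif and the Y box. For H2-K1 (minus strand, chr17:34000348-34000467) they mark the NF-kB palindrome and the reverse complement of the interferon regulatory factor core AANNGAAA.
H2-Aa: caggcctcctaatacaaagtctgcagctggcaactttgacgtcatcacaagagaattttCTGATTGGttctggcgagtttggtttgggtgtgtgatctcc
H2-Eb1: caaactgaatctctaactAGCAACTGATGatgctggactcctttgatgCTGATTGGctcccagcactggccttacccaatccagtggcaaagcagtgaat
H2-K1: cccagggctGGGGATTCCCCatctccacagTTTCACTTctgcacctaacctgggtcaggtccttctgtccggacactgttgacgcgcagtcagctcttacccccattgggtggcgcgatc

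All 4 motifs were searched on both strands from 250 bases before to 50 bases after the start in 32851 mouse promoters, and 7 of the 10 members had an entry. The Y box was in 4.10% of promoters and, among the members, in H2-Aa (from -51 to -44) and H2-Eb1 (from -62 to -55). Its reverse complement was in H2-K1 (from 8 to 15, after the printed stretch) and H2-D1 (from -53 to -46). The X box-like motif was in 0.968% of promoters and in H2-Eb1 (from -92 to -82) and H2-DMb1 (from -95 to -85). The NF-kB palindrome was in 10 promoters (0.0304%), among them H2-K1 (from -111 to -101) and H2-D1 (from -171 to -161). The interferon core was in 23.9% of promoters, including H2-Aa, H2-DMa, H2-K1, H2-D1 and B2m. A match describes the letters in this window and shows no binding, and any relation of a motif to the change with diet was not tested.

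In the GENCODE M21 annotation of GRCm38, all 10 are protein-coding genes. The class II chains are H2-Aa (ENSMUSG00000036594, chr17:34282744-34287823, minus strand), H2-Ab1 (ENSMUSG00000073421, chr17:34257689-34269419, plus strand) and H2-Eb1 (ENSMUSG00000060586, chr17:34305867-34316674, plus strand). The DM chains are encoded by H2-DMa (ENSMUSG00000037649, chr17:34119541-34139101, plus strand) and H2-DMb1 (ENSMUSG00000079547, chr17:34153072-34160230, plus strand). The class I heavy chains are H2-K1 (ENSMUSG00000061232, chr17:33996017-34000347, minus strand) and H2-D1 (ENSMUSG00000073411, chr17:35262730-35267499, plus strand), and the light chain is B2m (ENSMUSG00000060802, chr2:122147686-122153083, plus strand). Cd74, the invariant chain, is ENSMUSG00000024610 (chr18:60803848-60812652, plus strand), and Ciita, the class II transactivator, is ENSMUSG00000022504 (chr16:10480059-10528418, plus strand).

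After filtering, 54917 cells remained, from 13122 to 14468 per library, and 34 to 59 cell barcodes were shared by any pair of libraries. The libraries held between 143748262 and 154221188 unique molecular identifiers (UMIs, each marking 1 captured RNA molecule). Cells were clustered without the 10 members, and clusters were named from marker lists, so each class is called by its likeness. A name also needed a marker of the class among the 10 leading genes of the cluster, from which members were not left out. The macrophage-like class held 81, 80, 101 and 99 cells in HFD 1, HFD 2, ND 1 and ND 2, and each of its 10 markers had UMIs. The lymphocyte-like class held 81, 76, 88 and 74 cells, and the Leydig-like class 210, 236, 364 and 362. Levels are given as CPM, the UMIs of a gene divided by all UMIs of that class and library and multiplied by 1000000. The log2 ratios are HFD over ND with their standard error (SE).

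RNA of Cd74, H2-Aa and H2-Eb1 was concentrated in few cells of the testis. Macrophage-like cells, 361 of the 54917, held 69.4% of all Cd74 UMIs, 64.7% of H2-Aa UMIs and 65.3% of H2-Eb1 UMIs. A cluster of 16 cells, named c18.4 and left without a cell type, held a further 19.0% of Cd74 and 20.95% of H2-Aa UMIs. Its highest score was for dendritic cell markers, but none of these was among its 10 leading genes. Those included the members H2-Aa, H2-Ab1, Cd74 and H2-Eb1, so its lack of a name was not independent of the members. Cd74, H2-Aa, H2-Ab1 and H2-Eb1 are called classical class II below. Their sum in this cluster was 39981 and 33089 CPM in the HFD libraries and 46614 and 31090 in the ND libraries, ranges that overlapped. The cluster held 2 and 3 cells in HFD and 5 and 6 in ND.

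The 2 DM genes, H2-Ab1 and H2-K1 had another distribution. Named germ-cell classes held 77.4% of H2-DMb1 UMIs, 63.6% of H2-K1 UMIs, 56.0% of H2-DMa UMIs and 47.6% of H2-Ab1 UMIs. These classes also held most UMIs of all genes. Of 548326522, pachytene-like and later spermatocytes held 172713558, round spermatid-like cells 84850396, early spermatocyte-like 66147041, elongating spermatid-like 40187612 and spermatogonia-like 1363440. A large percentage is thus no sign of a high level, and levels follow as CPM. Unnamed clusters nearest a germ-cell class held a further 38.7% of H2-DMa and 28.5% of H2-Ab1 UMIs. B2m and H2-D1 stood between these patterns, with 42.9% and 32.6% of their UMIs in Leydig-like cells. Ciita had 24 UMIs in all, 14 of them in macrophage-like cells.

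**Figure D1:**
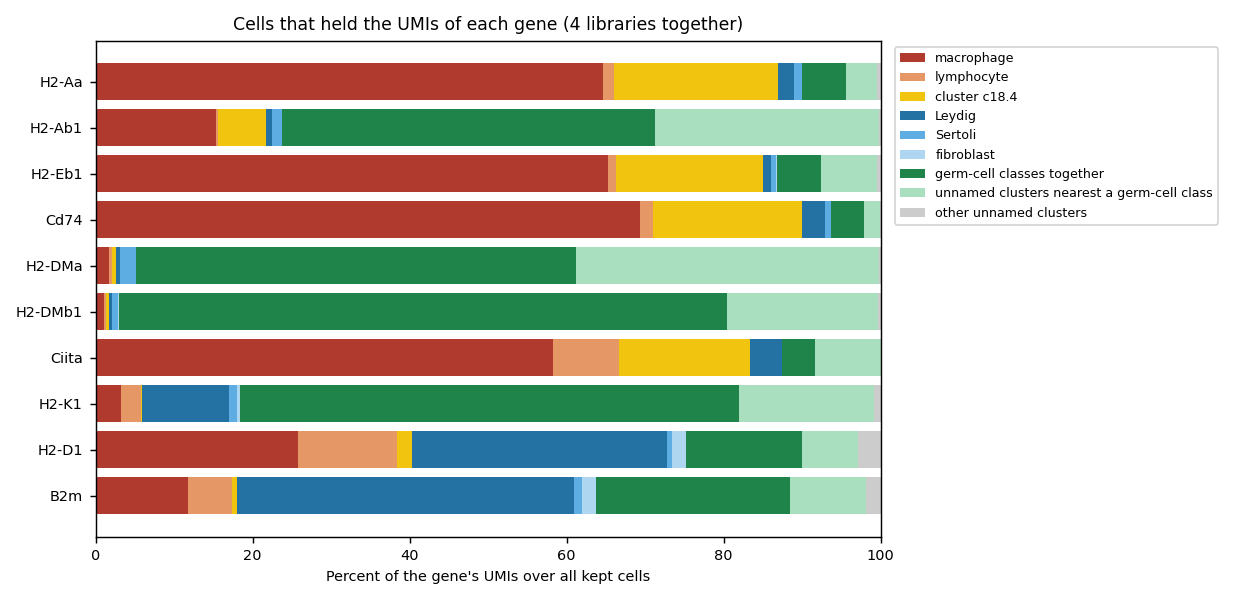
Percent of each gene's UMIs (x axis) held by each cell class, over the 4 libraries together; each bar is 1 gene and sums to 100. The macrophage-like part is 69.4% for Cd74 and 15.4% for H2-Ab1, and germ-cell classes fill 77.4% of the H2-DMb1 bar.

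By level, macrophage-like cells ranked first of the 10 named classes for all 10 members. Cd74 averaged 3003 ± 1287 CPM there (SD over the 4 libraries, which includes the diets), against 81.8 ± 63.3 in lymphocyte-like cells, the class next in order. The range of macrophage-like libraries, 1712 to 4296, lay above the range of lymphocyte-like libraries, 11.8 to 138.7. For Cd74 every other pair of neighbours in the order overlapped in range. For H2-K1 the 2 highest classes overlapped, with 744 ± 163 in macrophage-like and 666 ± 131 in lymphocyte-like cells, and Leydig-like cells followed at 390 ± 54.3. For B2m, lymphocyte-like (637 ± 181) and Leydig-like cells (627 ± 157) overlapped, below macrophage-like cells at 1137 ± 194. H2-D1 ranked in the order macrophage-like (953 ± 157), lymphocyte-like (539 ± 141) and Leydig-like (187 ± 12.8) with no overlap between these 3. These orders are descriptions, since the classes were clustered from the same cells.

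**Figure D2:**
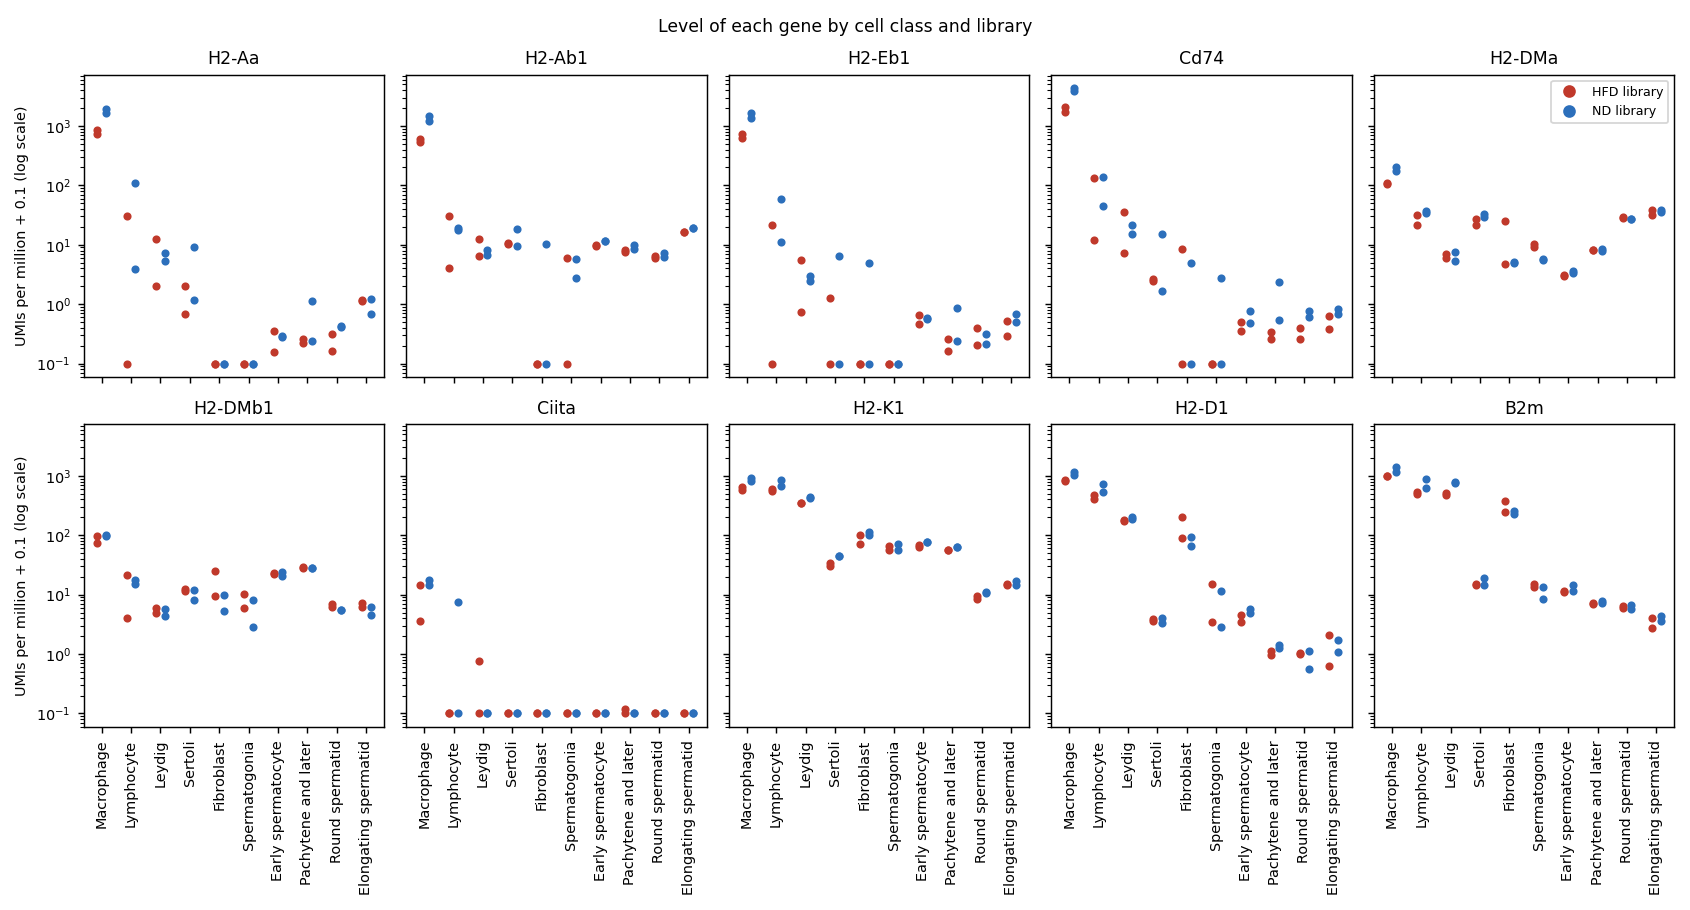
CPM plus 0.1 (log scale) of each gene in each cell class, 1 point per library; a gene with no UMI in a class is drawn at 0.1. The macrophage-like points lie highest on average for all 10 genes. H2-DMa, H2-DMb1, H2-Ab1, H2-K1 and B2m have all points above 1 in every spermatocyte and spermatid class.

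In macrophage-like cells, RNA for the classical class II molecules was lower on the high-fat diet. The chains H2-Aa, H2-Ab1 and H2-Eb1 and the invariant chain Cd74 all fell, with ND levels 2.23 to 2.41 times the HFD levels, and H2-DMa, a DM chain, and H2-K1, a class I heavy chain, fell as well. The other class I genes and the DM chain H2-DMb1 did not pass the test.

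H2-Aa, the alpha chain of the I-A molecule, had 736 and 857 CPM in the HFD libraries and 1673 and 1962 in the ND libraries. H2-Ab1, its beta chain, had 543 and 614 against 1208 and 1485. H2-Eb1, the beta chain of the I-E molecule, had 629 and 719 against 1369 and 1656. In all 3, each HFD library lay below each ND library. Cd74, which escorts class II chains out of the endoplasmic reticulum, had 1712 and 2099 against 3906 and 4296 CPM, from 498, 578, 1093 and 1235 UMIs. Its groups did not overlap either.

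The log2 ratios were -1.24 (SE 0.12, adjusted p = 2.18e-08) for H2-Aa and -1.27 (SE 0.13, adjusted p = 4.09e-08) for H2-Ab1, by edgeR's quasi-likelihood test with Benjamini-Hochberg adjustment over all genes tested. By the same edgeR test they were -1.22 (SE 0.13, adjusted p = 4.22e-08) for H2-Eb1 and -1.16 (SE 0.11, adjusted p = 6.69e-09) for Cd74. All 4 passed the threshold of 0.05 in all 17 alternative analyses, the largest adjusted p being 0.00638.

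H2-DMa, which helps to load peptide, had 107 and 109 CPM with the diet and 175 and 205 CPM without it, and fell by 0.87 on the log2 scale (SE 0.24, edgeR adjusted p = 0.0496). It passed in 4 of 17 alternatives, and without any 1 library its adjusted p was between 0.0569 and 0.442. H2-DMb1, its partner chain, had 96.3 and 72.6 against 100.1 and 97.4 (log2 ratio -0.27, edgeR adjusted p = 0.885), so that 1 HFD library lay close to the ND libraries. Ciita, the regulator that switches class II genes on, had 1 and 4 UMIs with the diet and 4 and 5 UMIs without it, and was too low to test.

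Among class I genes, H2-K1 had 567 and 654 CPM in HFD and 826 and 929 in ND (log2 ratio -0.57, SE 0.13, edgeR adjusted p = 0.0102). H2-D1, the other heavy chain, had 849 and 803 against 1015 and 1144 (log2 ratio -0.44, edgeR adjusted p = 0.0511). B2m had 973 and 1010 against 1169 and 1398 (log2 ratio -0.42, edgeR adjusted p = 0.0538). In all 3 the groups did not overlap, and only H2-K1 passed. The H2-K1 call was lost in 8 of 17 alternatives, among them without HFD 1 (-0.48, edgeR adjusted p = 0.173) and without ND 2 (-0.50, edgeR adjusted p = 0.0754). Without ND 1, H2-D1 (-0.54, edgeR adjusted p = 0.00697) and B2m (-0.56, edgeR adjusted p = 0.00136) passed.

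Of the 9 members tested, 6 were called lower and 0 higher, where 2.3% of all genes tested were called, 1.94% of the 5477 lower and 0.365% higher. The median log2 ratio of the 6 class II members tested was -1.19 and that of the 3 class I members -0.44, against 0.01 over all genes tested. The share of all genes whose HFD and ND libraries did not overlap is not given here. Such separation alone thus shows no change particular to the members.

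**Figure D3:**
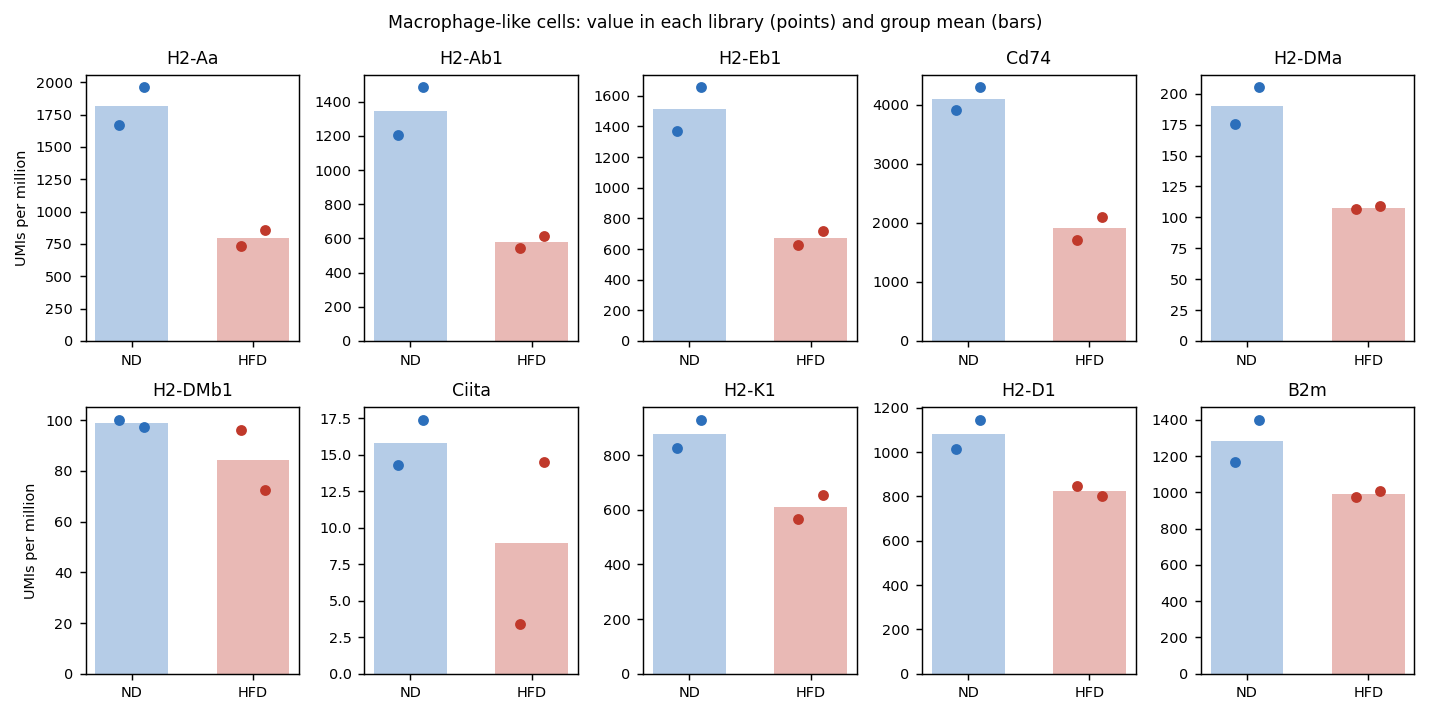
CPM of each gene in macrophage-like cells, with points for the 2 ND and the 2 HFD libraries and bars for the group means. The gap between HFD and ND points is widest for the classical class II genes. The points of Ciita, which rests on 14 UMIs, overlap.

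Other RNA moved with diet in this class. The macrophage marker list (10 of 10 genes with UMIs) summed to 10261 and 10740 CPM in HFD and 15067 and 15247 in ND. Its genes did not move alike, at class totals of 275317 to 290897 UMIs a library: Lyz2 had 872 and 847 UMIs against 1315 and 1423 and C1qa 562 and 582 against 911 and 928, while Mrc1 was higher in HFD (162 and 146 against 125 and 131), and Csf1r (160 and 128 against 149 and 156) and Adgre1 (64 and 50 against 48 and 53) overlapped. Leydig markers (6 of 7 genes, Lhcgr at 0) summed to 330 and 138 in HFD against 67.9 and 52.2 in ND. Elongating spermatid markers (8 of 8 genes) overlapped, at 13479 and 14757 against 18109 and 13267. Early spermatocyte markers (7 of 8 genes) summed to 375 and 654 against 332 and 282, spermatogonia markers (6 of 8) to 61.9 and 61.7 against 21.4 and 31.3, and fibroblast markers (3 of 7) to 30.9 and 25.4 against 50.03 and 48.7. B lymphocyte markers (4 of 6, Cd79a and Ms4a1 at 0) summed to 175 and 196 against 225 and 216, and round spermatid markers (8 of 8) to 327 and 316 against 357 and 348. Pachytene and later spermatocyte markers (8 of 8) were at 2410 and 2412 against 2212 and 2379. T or NK, neutrophil, endothelial and myoid markers, from at most 8 UMIs a library, did not overlap either. The part of this other RNA in the members' values was not tested. Set against the macrophage markers of the same cells, classical class II UMIs were 35.3 and 39.9 per 100 marker UMIs in HFD and 54.1 and 61.6 in ND, so the groups still did not overlap. H2-K1 overlapped on this scale, at 5.53 and 6.09 with the diet and 5.48 and 6.09 without it. H2-D1 overlapped too, at 8.27 and 7.47 against 6.74 and 7.51, and B2m turned direction, at 9.48 and 9.40 against 7.76 and 9.17, so that both HFD libraries lay above both ND libraries. This scale was chosen after the values were seen, and it rests on a sum to which Lyz2 and C1qa gave many of the UMIs.

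The share of macrophage-like cells with class II RNA was lower in both HFD libraries than in both ND libraries. Each cell was thinned to 1000 UMIs, and cells with at least 1 classical class II UMI were counted. They made up 35.8% (95% interval 25.4 to 47.2) and 46.3% (35.0 to 57.8) of macrophage-like cells in HFD. In ND they made up 70.3% (60.4 to 79.0) and 78.8% (69.4 to 86.4). The group means were 41.0 ± 7.39% and 74.5 ± 6.004% (SD, n = 2), and an exact two-sided permutation test of 2 against 2 gave p = 0.3333, the smallest this design allows. Without thinning the shares were 50.6% and 57.5% against 76.2% and 83.8%. The intervals (Clopper-Pearson) cover counting error only. Median class II UMIs per thinned cell were 0 and 0 in HFD against 3 and 5 in ND.

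The same share at 1000 UMIs was 4.39% in lymphocyte-like, 2.30% in Leydig-like, 1.18% in Sertoli-like and 0.793% in round spermatid-like cells. The median depths before thinning were 2422 UMIs in macrophage-like, 2103 in lymphocyte-like and 11856.5 in round spermatid-like cells.

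Sub-clusters of the class, also made without the members, differed in class II level. The 86 cells of sub-cluster c24.3 carried 24022 classical class II CPM, and its first-ranked gene was Slpi, a protease inhibitor with UMIs in HFD 1 alone of the 4 libraries (3955 CPM). Ccl4, the lectin gene Mgl2, Il1b and Cxcl2 followed, in that order of ratio, of which Ccl4, Il1b and Cxcl2 encode inflammatory mediators. Folr2, a marker of resident macrophages, was at 11.7 CPM there and at 489 and 597 in sub-clusters c24.0 and c24.2. Within c24.3, class II was 18776 and 24035 in HFD (12 and 12 cells) and 26550 and 24680 in ND (29 and 33 cells). Of its leading genes, Il1b was at 436 and 752 against 1562 and 1459 CPM, while Cxcl2 overlapped at 2149 and 990 against 1181 and 941. The class was made up of different sub-clusters by diet: c24.3 held 14.8% and 15% of its cells in HFD and 28.7% and 33.3% in ND, and c24.1, with low class II, held 35.8% and 25.0% against 8.91% and 6.06%. Because some leading genes differed by diet, these shares are given as the make-up of the class, with no test, and their part in the share of cells with class II was not tested.

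Most other macrophage-like cells fell in sub-clusters with lower class II. In c24.2 (130 cells) it was 1589 and 3589 CPM in HFD against 4447 and 7672 in ND. In c24.0 (75 cells) it was 2886 and 2466 against 5801 and 3837. In both, each HFD library lay below each ND library, without a test. In c24.1, which carried the Leydig gene Insl3 in HFD alone (462 and 49.7 CPM, 0 in both ND libraries) and whose next-best score was for a spermatocyte class, the order was the other way, 1149 and 1423 against 665 and 1056. It held 29 and 20 cells in HFD and 9 and 6 in ND.

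With c24.1 and the 6 cells of c24.4 left out, chosen after seeing the data, Cd74 still fell (log2 ratio -0.89, edgeR adjusted p = 1.88e-13), as did H2-Aa (-0.98, edgeR adjusted p = 7.65e-12). H2-K1 (-0.36, edgeR adjusted p = 0.227) and H2-DMa (-0.61, edgeR adjusted p = 0.311) no longer passed. With c24.3 left out as well, Cd74 stood at -1.05 (edgeR adjusted p = 1.07e-13) and H2-Aa at -1.29 (edgeR adjusted p = 1.58e-12).

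**Figure D4:**
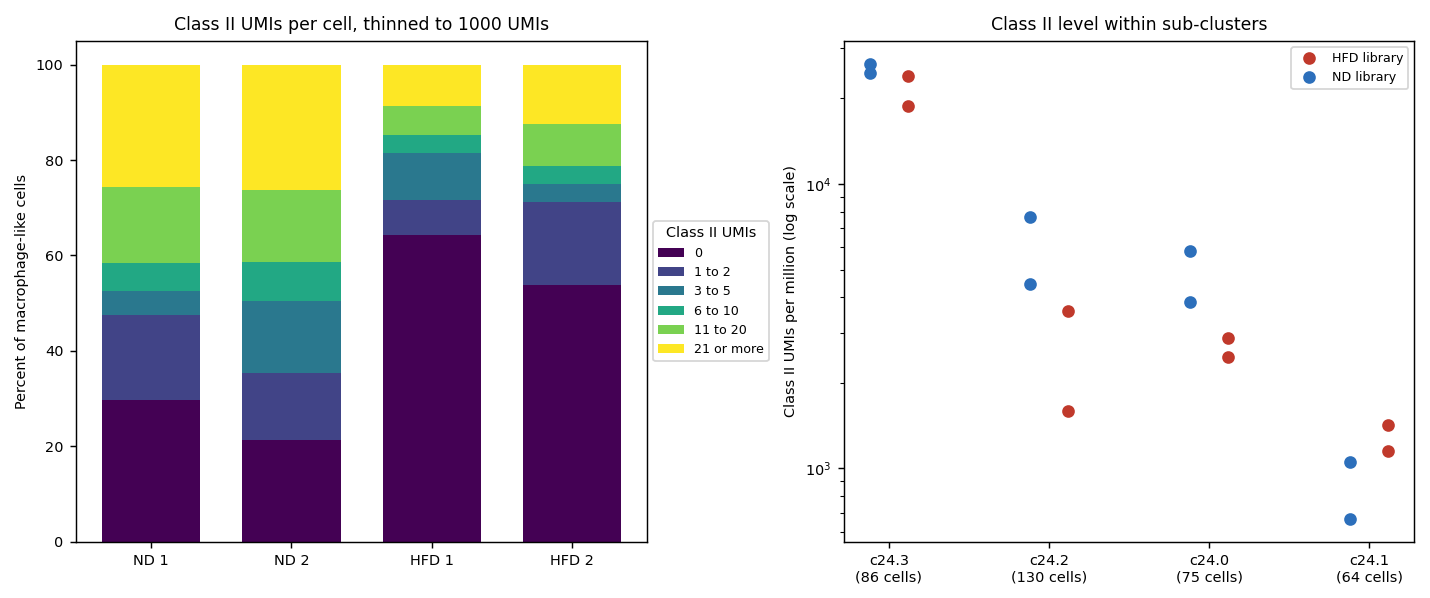
Left, percent of macrophage-like cells of each library by their classical class II UMIs after thinning to 1000 UMIs a cell. Right, classical class II CPM (log scale) in 4 sub-clusters, 1 point per library; HFD points lie below ND points in c24.3, c24.2 and c24.0 and above them in c24.1.

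Of 7 listed genes of resident macrophages, 6 had UMIs both in cells with and in cells without class II, and Lyve1 had 0 in both. Mrc1, a mannose receptor, had 442 CPM in the 215 cells with class II at 1000 UMIs and 560 in the 146 cells without. Folr2 had 336 against 304. Of the listed monocyte or dendritic genes, Cx3cr1, the fractalkine receptor, had 323 against 291, Ccr2, a receptor of recruited monocytes, had 12 UMIs against 0, and Ly6c2 had 0 in both. Clec10a had 115 against 112 CPM. Cd209a had 0 UMIs against 2, Itgax 1 against 0 and Flt3 1 against 1. These values are sums over the libraries, with no test. The cells with class II numbered 29 and 37 in HFD and 71 and 78 in ND, so the comparison also carries the diet. In the class as a whole, 1 of 6 resident genes tested was called lower in HFD and 0 higher, and 4 had a ratio below 0 (median log2 ratio -0.21). The 1 was Folr2 (-0.93, SE 0.19, edgeR adjusted p = 0.00297), named after its values were seen and not run under the alternatives, while Mrc1 had more UMIs in HFD, as given above.

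Of the genes around the members in this class, those for class I peptide supply fell in part. Of 10 tested, 4 were called lower and 0 higher (median log2 ratio -0.60), including Psmb10, an immunoproteasome subunit (17.2 and 58.1 against 114 and 93.9 CPM; -1.52, SE 0.38, edgeR adjusted p = 0.0200), and Psme2, a proteasome activator subunit (-1.19, SE 0.31, edgeR adjusted p = 0.0291). Without HFD 1 the edgeR adjusted p was 0.467 for Psmb10 and 0.334 for Psme2. Psmb10 also failed without ND 1 (0.0512), and Psme2 without ND 1 (0.0708) or ND 2 (0.0661). In all, Psmb10 passed in 11 of 17 alternatives and Psme2 in 8 of 17. Both failed with DESeq2 (0.453 and 0.645), with no filter on low counts (0.657 and 0.417), with the marker gate (0.891 and 0.816) and without the mixed and class II-high sub-clusters (0.172 and 0.164). Psme2 also failed without the mixed sub-clusters alone (0.148) and with the members kept in clustering (0.127). The other 2 of the 4 were the immunoproteasome subunits Psmb8 and Psmb9, named, as is Ctss, after their values were seen. Of 7 further class II genes tested 1 fell (Ctss, a lysosomal protease that degrades the invariant chain) and 1 rose. The one that rose was Ctsd, the lysosomal protease cathepsin D, with 956 and 1050 against 440 and 365 (1.27, SE 0.14, edgeR adjusted p = 1.19e-07). Of 3 non-classical class I genes tested, 0 passed with edgeR, and all 3 had a ratio below 0 (median log2 ratio -1.29).

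In lymphocyte-like cells no member was called. H2-K1 had 608 and 546 CPM in HFD and 662 and 850 in ND (log2 ratio -0.41, SE 0.20, edgeR adjusted p = 0.839). H2-D1 had 473 and 409 against 539 and 734 (-0.54, SE 0.21, edgeR adjusted p = 0.667), and B2m had 525 and 503 against 625 and 896 (-0.58, SE 0.21, edgeR adjusted p = 0.620). In all 3 the HFD libraries lay below the ND libraries, a pattern with no share of all genes beside it. Markers of early spermatocytes (7 of 8 genes) summed to 460 and 585 CPM in these cells in HFD against 292 and 277 in ND, and those of spermatogonia (6 of 8) to 46.0 and 47.1 against 29.9 and 11.6. T or NK markers (10 of 10) summed to 1052 and 1190 against 1389 and 1792, and dendritic markers (4 of 9) to 276 and 306 against 438 and 324. Macrophage, endothelial, myoid, fibroblast and Sertoli markers, from at most 6 UMIs a library, did not overlap either. The part of this RNA in the class I values was not tested. Per 100 T or NK marker UMIs the groups overlapped, with H2-K1 at 57.7 and 45.9 against 47.7 and 47.4, H2-D1 at 44.9 and 34.3 against 38.8 and 40.97, and B2m at 49.9 and 42.2 against 45.0 and 50, on a scale chosen after the values were seen. The cells were spread differently over sub-clusters, with 36 and 38 HFD against 22 and 13 ND cells in c18.0, and 26 and 19 against 38 and 45 in c18.1. Summed class I was 1485 and 1301 against 2663 and 2614 CPM in c18.0, and overlapped in c18.1, at 2650 and 2924 against 2901 and 2742. Of the 4 members tested, 0 passed with edgeR, limma or DESeq2. An unadjusted edgeR p under 0.05 was found for 2, with no share of all genes given at that level. Of all genes tested there, 0.142% were called. Without 33 cells of sub-cluster c18.2, whose next-best score was for round spermatids, B2m (-0.66, edgeR adjusted p = 0.00649) and H2-D1 (-0.60, edgeR adjusted p = 0.0342) passed, an alternative chosen after seeing the data.

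Class II in this class rested on few cells. Cd74 UMIs numbered 43 and 3 (HFD) and 12 and 24 (ND), from 7, 3, 3 and 2 cells, and 21 of the 24 in ND 2 came from 1 cell (log2 ratio -0.15, SE 0.62, edgeR adjusted p = 0.993). Without HFD 1 the ratio was -2.85 (edgeR adjusted p = 0.0423), and without ND 2 it was 0.78 (edgeR adjusted p = 0.799). B cell markers summed to 5652 CPM in HFD 1 and to 7.86, 89.8 and 121 in the other 3 libraries. Their part in the Cd74 values was not tested. Of the other listed genes, Ly6c2, a surface antigen of memory T cells and monocytes, fell (117 and 141 against 307 and 428; -1.53, SE 0.25, edgeR adjusted p = 0.0109), but passed in 9 of 15 alternatives. It did not pass without ND 2 (-1.28, edgeR adjusted p = 0.0971), with DESeq2 (0.999), a common UMI floor (0.109), doublets kept (0.362), Leiden resolution 2 (0.0967) or the marker gate (0.244). It is among the 10 leading genes of c18.1, which held 32.1% and 25.0% of the class in HFD and 43.2% and 60.8% in ND, and the part of that shift was not tested.

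In Leydig-like cells B2m and H2-K1, both class I genes, fell on the high-fat diet. B2m had 472 and 511 CPM in HFD against 742 and 780 in ND (log2 ratio -0.67, SE 0.08, edgeR adjusted p = 2.80e-07). H2-K1 had 343 and 343 against 430 and 443 (-0.39, SE 0.09, edgeR adjusted p = 0.00382). H2-D1 had 175 and 182 against 205 and 188 (-0.18, SE 0.10, edgeR adjusted p = 0.383) and did not pass. Of the 8 members tested, 2 were called lower and 0 higher, where 4.33% of all genes tested were called, 2.24% lower and 2.09% higher. B2m passed in 13 of 14 alternatives and H2-K1 in 11 of 14. Neither passed in cells gated by markers alone, and H2-K1 also failed without HFD 1 (-0.38, edgeR adjusted p = 0.0617) and with replicate number as a block (edgeR adjusted p = 0.110).

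Leydig markers themselves summed to 16275 and 16298 CPM in HFD and 21149 and 17557 in ND. Per 100 of these marker UMIs, B2m was 2.90 and 3.14 against 3.51 and 4.44, and H2-K1 was 2.11 and 2.11 against 2.03 and 2.52, so that of these 2 genes only B2m kept groups that did not overlap. H2-D1 turned direction, at 1.073 and 1.119 against 0.968 and 1.070, with both HFD libraries above both ND libraries. Markers of pachytene and later spermatocytes (8 of 8 genes) summed to 1093 and 1041 CPM in these cells in HFD against 737 and 819 in ND, and early spermatocyte markers (8 of 8) to 215 and 151 against 126 and 142. Dendritic markers (6 of 9) were also higher in HFD, at 127 and 115 against 85.1 and 96.9, and fibroblast markers (6 of 7) lower, at 174 and 194 against 209 and 236. Markers of Sertoli cells, spermatogonia, round spermatids, B and T or NK lymphocytes and myoid cells did not overlap either. Their part in the B2m and H2-K1 values was not tested. Class II in Leydig-like cells rested on few cells. Cd74 UMIs numbered 11 and 51 (HFD) and 32 and 46 (ND), with 29 of the 51 in 1 cell and 18 of the 32 in 1 cell. Its log2 ratio was 0.14 (SE 0.34, edgeR adjusted p = 0.887), 0.91 without HFD 1 (edgeR adjusted p = 0.0498) and -1.41 without HFD 2 (edgeR adjusted p = 0.0228). In cells gated by markers alone it was 3.03 (SE 0.41, edgeR adjusted p = 3.71e-10), called higher. Of the other listed genes, Stat2, which relays interferon signals, fell (29.9 and 28.3 against 44.9 and 57.6 CPM; -0.86, SE 0.19, edgeR adjusted p = 0.00348), as did the non-classical class I gene H2-T23 (-0.83, edgeR adjusted p = 0.0317). Irf1, an interferon-regulated transcription factor, rose (74.6 and 58.0 against 51.5 and 32.3; 0.63, edgeR adjusted p = 0.0311). Stat2 did not pass without ND 2 (adjusted p = 0.0953), H2-T23 without HFD 1 (0.196), HFD 2 (0.0534) or ND 1 (0.202), and Irf1 without HFD 1 (0.376) or ND 2 (0.507). None of the 3 passed with the replicate block (edgeR adjusted p = 0.0967, 0.163 and 0.146) or the marker gate (0.491, 0.956 and 0.976). H2-T23 also failed at Leiden resolution 2 (0.0596), and Irf1 with the 10% mitochondrial limit (0.0526) and with doublets kept (0.0760).

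UMIs of H2-Ab1, the 2 DM chains and H2-K1 were found in germ-cell classes, with few of the other class II genes. B2m was found there too. It averaged 12.1 CPM in early spermatocyte-like, 7.15 in pachytene-like and later spermatocyte, 6.07 in round and 3.59 in elongating spermatid-like cells. H2-Ab1 averaged 10.5 ± 0.941 CPM in early spermatocyte-like, 8.42 ± 0.915 in pachytene-like and later spermatocyte, 6.30 ± 0.546 in round spermatid-like and 17.6 ± 1.44 in elongating spermatid-like cells (SD, n = 4 libraries). Cd74 averaged 0.788 or less in each of these. There were 0.0402, 0.0848, 0.0689 and 0.0297 Cd74 UMIs per H2-Ab1 UMI in these classes, in that order, against 3.12 in macrophage-like and 2.37 in Leydig-like cells. The value of 0.0848 rested on ND 2: by library it was 0.0212 and 0.0302 in HFD and 0.0528 and 0.239 in ND, and 67 of the 86 Cd74 UMIs of ND 2 came from 2 cells. The 2 genes thus stood in different proportions in germ-cell classes and in macrophage-like cells. This was not particular to germ cells. Sertoli-like cells had 0.25 and 0.222 Cd74 UMIs per H2-Ab1 UMI in HFD and 0.167 and 0.8125 in ND, with H2-Ab1 at 12.2 ± 4.16 CPM. H2-DMa averaged 27.9 ± 5.04 CPM in Sertoli-like and 31.3 ± 6.96 in lymphocyte-like cells. In pachytene-like and later spermatocytes 16.2% of cells had an H2-Ab1 UMI and 0.747% a Cd74 UMI, at the same median depth of 23127 UMIs. In Leydig-like cells, with a median depth of 6065.5, the shares were 3.58% and 3.92%. For the DM chains, Leydig-like cells had shares of 3.84% (H2-DMa) and 2.82% (H2-DMb1). Free RNA was not measured directly, and its part in the low germ-cell levels was not tested.

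The DM chains differed from each other in stage. Among germ-cell classes H2-DMa was highest in spermatids, at 27.7 ± 1.07 in round and 35.6 ± 3.30 in elongating spermatid-like cells against 3.15 ± 0.285 in early spermatocyte-like cells. H2-DMb1 was highest there in pachytene-like and later spermatocytes, at 28.2 ± 0.564 against 5.91 ± 0.650 in round spermatid-like cells, and was detected in 40.2% of the former (median depth 23127 UMIs) and 7.86% of the latter (11856.5). H2-K1 averaged 60.1 ± 3.87 in pachytene-like and later spermatocytes and 9.84 ± 1.09 in round spermatid-like cells. The gene model of H2-DMa overlaps Brd2 on the other strand, 16467 bases from the 3′ end of H2-DMa. Brd2 averaged 273 CPM in early spermatocyte-like, 387 in pachytene-like and later, 194 in round and 70.6 in elongating cells, where H2-DMa averaged 3.15, 8.01, 27.7 and 35.6. The 3′ end of Ciita is overlapped by Dexi on the other strand, which had 6476 UMIs in the whole testis. That of B2m is overlapped by Patl2 on the other strand, which had 91 UMIs. Whether reads of Brd2, Dexi or Patl2 affected the counts of these members was not tested. Whether the counting used strand is not given in the sources used here, and class I heavy chain genes are similar in sequence, so reads could be shared between them.

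Few members were called in germ cells and in the other somatic classes. Of 35 member and class pairs tested in Sertoli-like, fibroblast-like and germ-cell classes, 8 had an unadjusted edgeR p under 0.05. No share of all genes is given at that unadjusted level. After adjustment 2 of the 35 were called, both lower. Both were in pachytene-like and later spermatocytes, where 7.85% of all genes tested were called, 4.87% lower and 2.98% higher. The share of all genes called was 0.115% in Sertoli-like, 0% in fibroblast-like, 2.25% in early spermatocyte-like, 0.219% in round spermatid-like and 6.39% in elongating spermatid-like cells. H2-K1 had 57.3 and 56.2 CPM in HFD against 62.8 and 63.9 in ND (log2 ratio -0.14, SE 0.04, edgeR adjusted p = 0.0420). It did not pass without HFD 1 (adjusted p = 0.165), HFD 2 (0.361) or ND 2 (0.0567), with no filter on low counts (0.137) or with DESeq2 (0.290). Cd74 UMIs numbered 8 and 12 (HFD) and 16 and 86 (ND) (-2.75, SE 0.60, edgeR adjusted p = 0.0109), and 67 of the 86 in ND 2 came from 2 cells. Without ND 2 it stood at -1.13 (edgeR adjusted p = 0.253). Without cells of at least 10 Cd74 UMIs, chosen after seeing the data, it stood at -1.22 (edgeR adjusted p = 0.0657). It also failed with no filter on low counts (0.0962), limma (0.0539), doublets kept (0.0881) and Leiden resolution 2 (0.0733). Ifngr2, a chain of the interferon gamma receptor, fell in elongating spermatid-like cells (-0.44, SE 0.11, edgeR adjusted p = 0.00723), but did not pass without HFD 2 (edgeR adjusted p = 0.122) or ND 2 (0.145), with doublets kept (0.164) or at Leiden resolution 2 (0.265).

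The difference between classes was tested directly for each member, in 1 edgeR fit per pair of classes, in which sums of 1 library from different classes count as separate samples. The H2-Ab1 change in macrophage-like cells was more negative than that in early spermatocyte-like (by -1.07, SE 0.16), pachytene-like and later (-1.12, SE 0.14), round spermatid-like (-1.14, SE 0.18) and elongating spermatid-like cells (-0.92, SE 0.17). The edgeR adjusted p was 9.60e-07, 4.58e-07, 8.47e-04 and 1.25e-04 in that order, in comparisons where 0.208%, 0.232%, 0.149% and 0.114% of all genes passed. Without HFD 1 the adjusted p was 0.281, 0.302, 0.906 and 0.755. The call also failed without HFD 2 in the pachytene-like (0.0581), round (0.466) and elongating (0.129) comparisons, and without ND 2 in the elongating one (0.261). Against Leydig-like cells the differences were -1.56 for H2-Ab1 (SE 0.42, edgeR adjusted p = 0.106) and -1.27 for Cd74 (SE 0.35, edgeR adjusted p = 0.122), which did not pass, where 0.3% of all genes did. Against lymphocyte-like, Sertoli-like and fibroblast-like cells 0 members passed with edgeR, where 0.0313%, 0.0184% and 0.126% of all genes did.

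**Figure D5:**
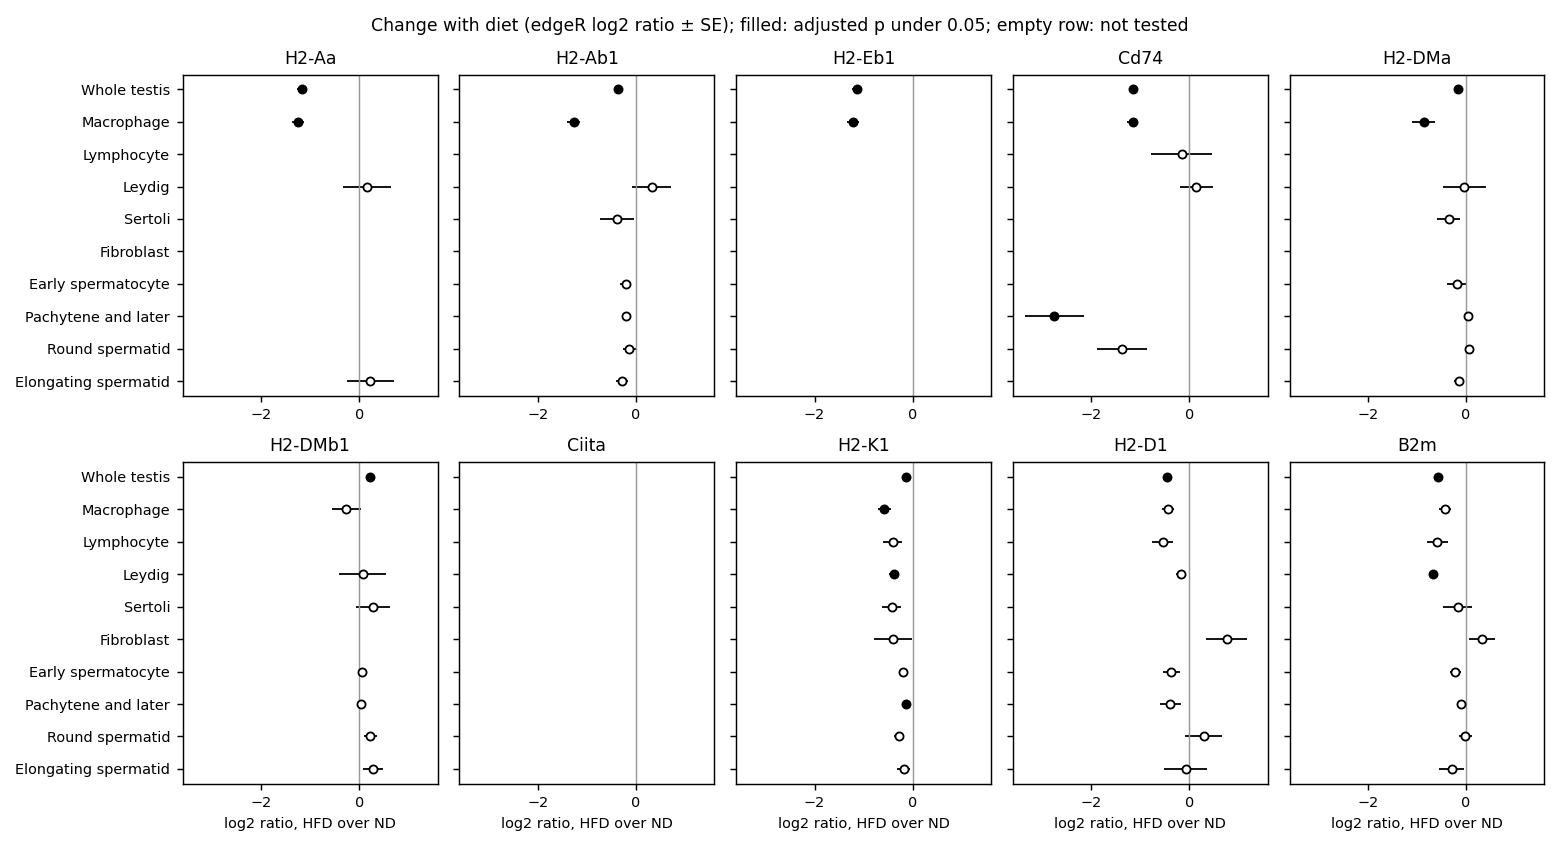
Log2 ratio of HFD over ND (x axis) with its SE for each gene in the whole testis and in each tested class; filled points passed the edgeR threshold and a class without a point was not tested. Classical class II genes lie between -1.27 and -1.16 in macrophage-like cells, and H2-Ab1 lies between -0.28 and -0.13 in germ-cell classes.

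Summed over all kept cells of a library, 8 members were lower and 1 higher on the high-fat diet, where 34.3% of all genes tested were called, 18.9% lower and 15.3% higher. In such sums, fewer cells of a type and less RNA per cell cannot be told apart. Macrophage-like cells made up 0.617% and 0.593% of cells in HFD and 0.698% and 0.716% in ND (log2 ratio -0.22, edgeR adjusted p = 0.199). Leydig-like cells made up 1.6004% and 1.75% against 2.52% and 2.62% (-0.62, edgeR adjusted p = 3.26e-05). The share of pachytene-like and later spermatocytes was higher in HFD, at 13.96% and 16.6% against 11.8% and 12.4% (0.34, edgeR adjusted p = 0.00321), and that of round spermatid-like cells lower, at 8.85% and 8.67% against 12.4% and 13.1% (-0.54, edgeR adjusted p = 1.73e-05).

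The classical class II genes with most of their UMIs in macrophage-like cells fell in the whole testis as well. Cluster c18.4, with 2 and 3 cells in HFD against 5 and 6 in ND, held 298 Cd74 UMIs in HFD and 633 in ND. Its part in this fall was not tested. H2-Aa had 2.55 and 2.64 CPM against 5.16 and 6.53 (log2 ratio -1.16, SE 0.11, edgeR adjusted p = 6.15e-06). Cd74 had 5.27 and 5.94 against 11.7 and 13.3 (-1.15, SE 0.08, edgeR adjusted p = 2.68e-07), and H2-Eb1 stood at -1.14 (edgeR adjusted p = 5.70e-06). H2-Ab1, with 47.6% of its UMIs in germ-cell classes, had 11.3 and 11.5 against 14.7 and 14.6 (-0.36, SE 0.05, edgeR adjusted p = 1.39e-04). B2m was at -0.58 (edgeR adjusted p = 7.29e-06) and H2-D1 at -0.46 (edgeR adjusted p = 7.43e-05). H2-DMa at -0.16 (edgeR adjusted p = 0.0412) and H2-K1 at -0.13 (edgeR adjusted p = 0.0263) each passed in 6 of 11 alternatives. H2-DMa did not pass without HFD 2 (0.401) or ND 2 (0.0736), nor H2-K1 without HFD 1 (0.0696), HFD 2 (0.147) or ND 2 (0.126). H2-DMb1 was higher in HFD, with 17.6 and 18.2 against 15.1 and 15.6 (0.23, SE 0.05, edgeR adjusted p = 0.00248). Pachytene-like and later spermatocytes held 53.2% of its UMIs, and within them its log2 ratio was 0.04 (SE 0.05, edgeR adjusted p = 0.718). Ciita was not tested. Among the regulators of class II promoters, Rfxap, a subunit of the X box-binding complex, rose by 0.19 (edgeR adjusted p = 0.00900) but did not pass without HFD 2 (0.106) or ND 1 (0.0812).

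Genes whose level followed classical class II over the 40 sums of class and library were Ctss (Pearson r = 0.97), Il10ra (0.96), Cd83 (0.96), Lilr4b (0.95) and Ccl3 (0.95), of 12640 genes compared. Those that followed class I were Junb (0.97), H2-T23 (0.97), Psmb8 (0.97), Shisa5 (0.97) and Psmb9 (0.96). The sums of a library share its depth, and these correlations describe levels across cell classes, with no test.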

How the data were processed

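The authors deposited, per library, a matrix of raw UMI counts per gene and barcode, without normalization, per the file headers, which name software version 3.0.2. The submitters' processing notes name mm10. The aligner and strand setting are not given in the sources used here. All 55450 gene identifiers matched GENCODE M21. Deposited dense count tables were not used.

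Barcodes under 200 genes or over 20% mitochondrial UMIs were dropped, and 421, 853, 780 and 756 Scrublet doublets (HFD 1, HFD 2, ND 1, ND 2) were left out. Clustering in scanpy 1.11.5 used 2000 variable genes without the members, 30 components, 15 neighbours and Leiden resolution 1. Clusters scoring for more than 1 class were clustered again at 0.5.

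UMI counts were summed per library and class, filtered (filterByExpr), scaled by TMM and tested with edgeR 4.0.16 (quasi-likelihood, Benjamini-Hochberg over all genes of the class, threshold 0.05), in classes with at least 50 cells in every library. limma 3.58.1 and DESeq2 1.42.0 were alternatives. The test was also run on simulated counts, with the same spread between libraries set for every gene and large changes planted in well-counted genes. That run does not cover small changes or genes with few UMIs, and no error rate is taken from it. The members and gene lists were chosen with earlier results of these data known. All 10 members are reported. Of the other listed genes, those named are up to 3 per direction and class past the threshold with a mean of at least 20 CPM, ranked by log2 ratio, and the 5 most alike genes per set. A gene that this rule names is not reported here.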

Additional observations from a re-analysis of the deposited data

Results flagged for a closer look

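The H2-Ab1 change differed between macrophage-like and germ-cell classes by a test of the difference itself, with values of -1.07 (early spermatocyte-like), -1.12 (pachytene-like and later spermatocyte), -1.14 (round spermatid-like) and -0.92 (elongating spermatid-like) on the log2 scale. None of these 4 passed without HFD 1 (edgeR adjusted p = 0.281, 0.302, 0.906 and 0.755), and the last 3 did not pass without HFD 2 (0.0581, 0.466 and 0.129). The last also did not pass without ND 2 (0.261). The H2-K1 change differed between macrophage-like cells and pachytene-like and later spermatocytes by -0.48 (edgeR adjusted p = 0.0403), and this no longer passed when any 1 library was left out.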

How the results depend on the processing

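In macrophage-like cells, 4 to 7 members were called over all alternatives, and the 4 classical class II genes were among them in every one run. In the whole testis the count was 7 to 9. In lymphocyte-like cells the count moved from 0 to 2 without mixed sub-clusters and ranged from 0 to 1 when libraries were left out. In Leydig-like cells it moved from 2 to 1 with the marker gate, where the 1 was Cd74, called higher (3.03), and not B2m or H2-K1, and ranged from 2 to 3 when libraries were left out. In the other classes it moved from 2 to 1 without the low-count filter, with limma, with doublets kept and without cells of at least 10 Cd74 UMIs, to 0 with DESeq2, and ranged from 0 to 8 when libraries were left out. The number of differences between classes ranged from 2 to 5 when libraries were left out, but not of the same pairs. Without HFD 1 the 2 were Cd74 against Leydig-like and H2-D1 against fibroblast-like cells, and none of the 5 reported passed. Without HFD 2 they were H2-Ab1 against early spermatocyte-like and Cd74 against lymphocyte-like cells. The difference in class II share, -33.5 percentage points, was -22.3 at 2000 UMIs a cell and -26.0 unthinned, and ranged from -38.7 to -28.3 when libraries were left out. The setting of 2000 UMIs dropped 18 and 14 smaller cells in HFD and 36 and 36 in ND. The causes were not tested. Shares of all genes called are given above for the main analysis only. The member counts under the alternatives and the replicate block have no such share beside them, so they show no change particular to the members.

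Same-numbered libraries correlated between -0.060 and 0.038 in their deviations. Such values cannot show whether same-numbered libraries were prepared together, and a replicate block was run as an alternative. With the replicate block, 5 members were called in macrophage-like, 0 in lymphocyte-like and 1 in Leydig-like cells, 9 in the whole testis and 3 in the other classes.

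Of 618 single-gene values, 25 changed sign. In lymphocyte-like cells these were B2m (0.032) and H2-K1 (0.21) with the marker gate, and Cd74 with a common UMI floor (0.018), with doublets kept (0.17) and without mixed sub-clusters (0.96). When libraries were left out, Cd74 there ranged from -2.85 to 0.78. In Leydig-like cells they were Cd74 with limma (-0.19) and doublets kept (-0.16), H2-Aa with limma (-0.20), H2-Ab1 with doublets kept (-0.31), and H2-DMa with the UMI floor (0.061), with doublets kept (0.12), at Leiden resolution 2 (0.068) and with the gate (0.083). When libraries were left out, values there ranged from -1.41 to 0.91 for Cd74, from -1.67 to 0.98 for H2-Aa, from -0.22 to 0.73 for H2-Ab1, from -0.26 to 0.23 for H2-DMa and from -0.062 to 0.19 for H2-DMb1. In macrophage-like cells H2-DMb1 changed without mixed sub-clusters (0.14) and without these and the class II-high one (0.39). None of these genes had passed in that class. Ciita was too low in UMIs to test in any class.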
